A study of Rattus norvegicus with 6 samples.

Results

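The glucocorticoid receptor genes described here are 8 genes chosen by symbol: the receptors Nr3c1 and Nr3c2, the steroid enzyme gene Hsd11b1, the receptor co-chaperone gene Fkbp5 and the response genes Tsc22d3, Klf9, Zbtb16 and Sgk1. All 8 were found, each on 1 row, among the 17093 genes of every table. RNA was sequenced from primary nucleus pulposus cells of male rats, cells from the soft centre of the intervertebral disc, used at passages 3 to 6. Of 6 libraries, 3 came from cells in medium lacking fetal bovine serum (serum-starved) and 3 from control cells in medium with 10% serum. The labels give 48 h for both groups, name no separate animals or cultures, and give no hormone content for serum or medium. The labels conflict on the control medium: the series design states 10% serum for it and the treatment label of these samples is "no", but their treatment text repeats the serum-free wording of the starved samples.

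Glucocorticoids enter the cell and bind a receptor held in the cytoplasm by the HSP90 chaperone machine; the loaded receptor moves to the nucleus, binds DNA and switches genes on or off. Serum carries glucocorticoid, so its withdrawal takes away a source of ligand together with growth factors and lipids, and the design does not separate these. Several response genes also answer other signals: Sgk1 was named for its induction by serum as well as by glucocorticoid, and Tsc22d3 is also a target of FOXO factors. No hormone was measured in these cells.

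Sgk1 and Fkbp5 fell in serum-starved cells, 5.17-fold and 4.65-fold, while Tsc22d3 did not pass the test and Zbtb16 was at the floor in both groups. Of the receptors, Nr3c1 rose 1.40-fold and Nr3c2 fell 1.59-fold, and the enzyme gene Hsd11b1 rose 1.72-fold. Klf9 was 1.17-fold lower and did not pass. Folds are ratios of the mean deposited values, which are taken to be FPKM (fragment counts divided by transcript length and sequencing total). Each log2 fold change is the serum-starved minus the control mean of log2(value + 1), printed with its standard error, and these understate the change of low genes such as Fkbp5. A gene is said to rise or fall where limma gave it an adjusted p (Benjamini-Hochberg) no higher than 0.05 among 11493 genes, those reaching 1 in 3 or more libraries.

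By that test 5 of the 7 tested members were called, against 61.1% of all tested genes, so the share called is close to the background and is not a result about these genes. The 2 that rose stand beside 31.7% of all genes that rose, and the 3 that fell beside 29.4% that fell. The groups did not overlap for 6 of the 7 tested members, against 68.2% of all tested genes. The median log2 fold change was -0.21 over the 7 tested members and 0.03 over all tested genes. When every library was scaled to the same total, the median over all genes moved to 0.21 and the share of calls that were higher moved from 51.8% to 69.5%, so small rises and falls depend on the scale.

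**Figure D1:**
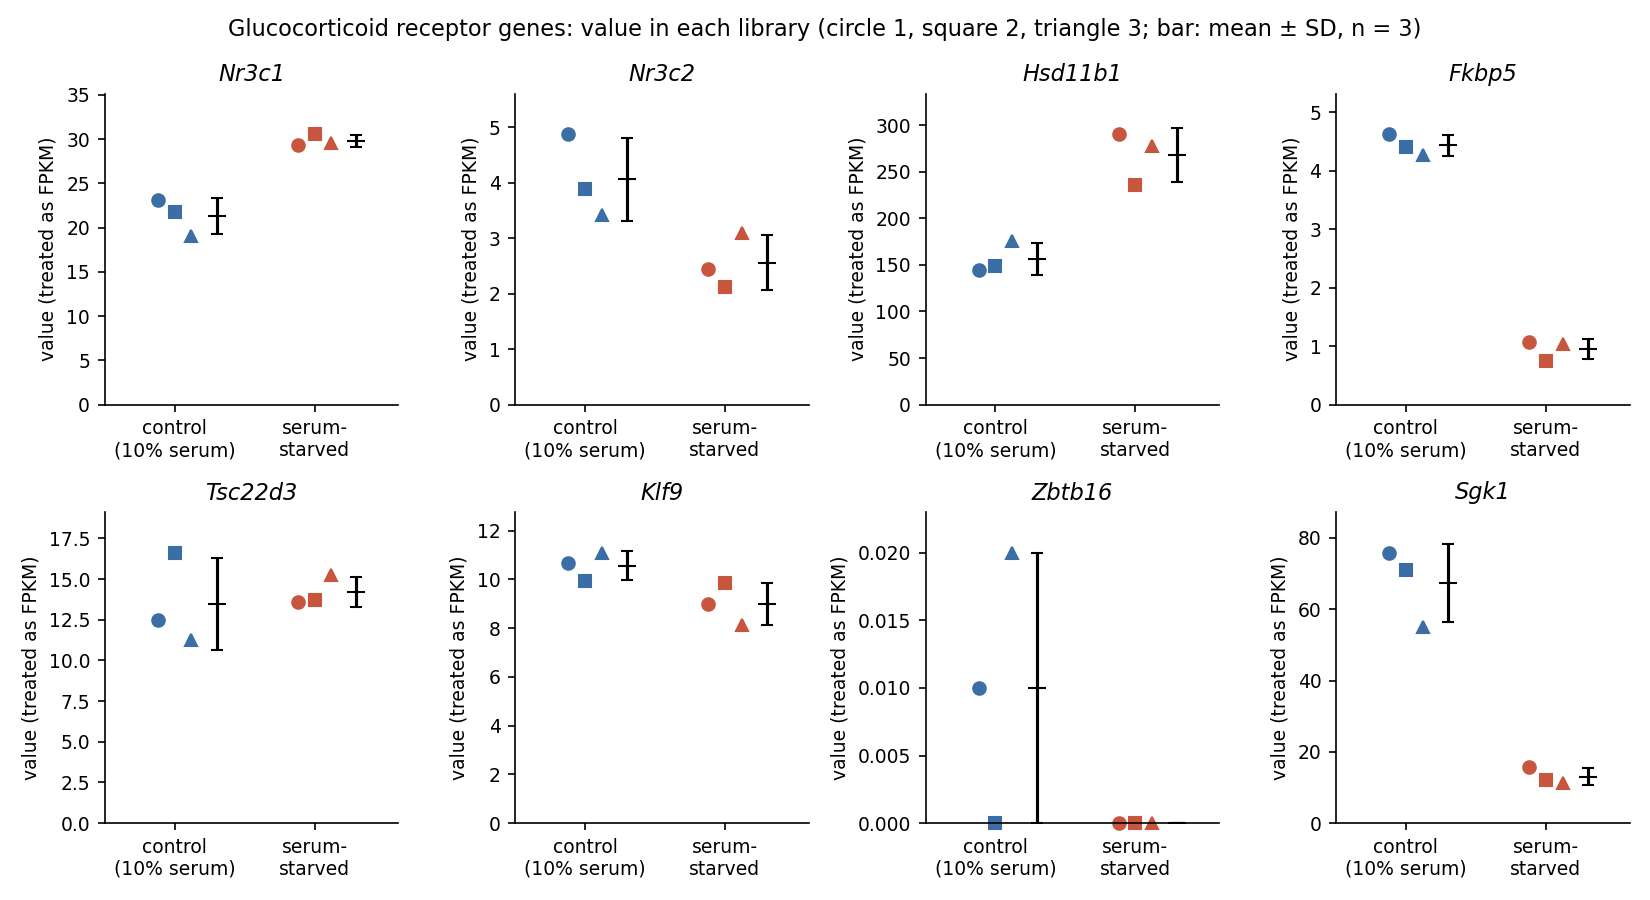
Deposited value (vertical axis, treated as FPKM, each panel with its own scale from 0) of each of the 8 genes in the 3 control and 3 serum-starved libraries; points are libraries and bars are mean ± SD. Sgk1 and Fkbp5 are separated most widely, Tsc22d3 overlaps between groups, and Zbtb16 is at or below 0.02 throughout.

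Several facts of the whole series bear on these values. Values summed to between 447788 and 473452 in serum-starved and between 522165 and 530095 in control libraries, and the depth in reads is unknown. All 8 proliferation markers fell, their summed level going from between 355 and 452 in control to between 73.2 and 80.0 in serum-starved libraries, and their part in the changes below was not tested. Of the 9 tested nucleus pulposus markers, 7 fell and 2 rose (median log2 fold change -1.36), and their part in the changes below was not tested. Acan fell 25.4-fold, from 82.61, 102.75 and 47.2 in control to 3.27, 2.67 and 3.22 in serum-starved replicates 1, 2 and 3. The 2 that rose were Car3, 25.4-fold from a mean of 1.03 to 26.1, and Pax1, 1.86-fold from 27.5 to 51.2. Col2a1 was at most 0.06 and Krt18 was at 0 in every library. Of the 11 tested fibroblast and annulus markers 8 rose, Thy1 fell 3.10-fold and 2 did not pass, and their part was not tested either. Their summed level, most of it from Col1a1, was 4057 to 4313 in serum-starved and 3073 to 3534 in control libraries, while Lum (2.46) and Mkx (3.60) had low control means. Of 6 matched macrophage markers Cd163 was at 0 everywhere, Cd14 fell 2.91-fold to 8.54, and Cd68 rose but was at most 3.97. All 5 matched endothelial markers were below the filter, summing to at most 1.19. In such bulk RNA, fewer cells of a type and less RNA per cell cannot be told apart.

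Nr3c1 (gene ID 24413) encodes the glucocorticoid receptor itself. Its values were 23.13, 21.72 and 19.06 in control replicates 1, 2 and 3 and 29.31, 30.57 and 29.51 in serum-starved replicates 1, 2 and 3. Every serum-starved library was above every control library, and the serum-starved values were the more tightly grouped. The log2 fold change was 0.47 ± 0.0798 (limma, Benjamini-Hochberg adjusted p = 0.00115). The receptor transcript lay at the 78.2 percentile of all genes in control and the 84.4 percentile in serum-starved cells. A log2 fold change as high or higher was seen in 18.0% of tested genes, whether or not they passed.

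Nr3c2 (gene ID 25672) encodes the mineralocorticoid receptor, which binds aldosterone and, with high affinity, glucocorticoids too. Its values were 4.88, 3.89 and 3.42 in control replicates 1, 2 and 3 and 2.44, 2.13 and 3.1 in the serum-starved ones. The groups did not overlap, but serum-starved replicate 3 and control replicate 3 lay next to each other. The log2 fold change was -0.51 ± 0.139 (limma, Benjamini-Hochberg adjusted p = 0.0127), with adjusted p = 0.0473 without serum-starved replicate 2 and 0.0486 after scaling to an equal total. A log2 fold change as low or lower was seen in 16.7% of tested genes, whether or not they passed.

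The ratio of Nr3c1 to Nr3c2 within a library does not depend on that library's scale. It was 4.74, 5.58 and 5.57 in control replicates 1, 2 and 3 and 12.0, 14.4 and 9.52 in serum-starved replicates 1, 2 and 3, on values per transcript length. All serum-starved libraries were above all controls, and the mean ratio was 2.26-fold higher in serum-starved cells (exact two-sided permutation test, p = 0.1, the smallest that 3 against 3 libraries allow). This ratio was chosen after values were seen, and any ratio without overlap gives that p, so the test adds nothing to the lack of overlap. Among the other steroid receptor genes, the progesterone receptor gene Pgr, which belongs to the same subfamily, fell 1.72-fold to 5.36 ± 0.349 (SD, n = 3). The estrogen receptor genes Esr1 and Esr2 were below the filter, with Esr2 at most 0.03 in any library.

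Hsd11b1 (gene ID 25116) encodes the enzyme that regenerates active glucocorticoid from its inactive 11-keto form inside cells. Its values were 143.98, 148.25 and 175.71 in control replicates 1, 2 and 3 and 290.27, 235.23 and 277.23 in the serum-starved ones. It was the most abundant of the 8 genes in every library, at the 97.1 percentile of all genes in control and the 98.4 percentile in serum-starved cells. All serum-starved libraries exceeded all controls, with a log2 fold change of 0.77 ± 0.104 (limma, Benjamini-Hochberg adjusted p = 0.000324). H6pd, which supplies the cofactor NADPH to this enzyme, was at 18.5 ± 2.72 in control and 16.4 ± 1.44 in serum-starved cells and did not pass the test. The within-library ratio of Hsd11b1 to H6pd ranged from 8.11 to 8.73 in control and from 13.3 to 19.5 in serum-starved libraries.

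Hsd11b2, the enzyme gene that works in the opposite direction and inactivates glucocorticoid, was low. It was at 0.07, 0.07 and 0.08 in control and at 1.2, 0.49 and 0.58 in serum-starved replicates 1, 2 and 3, below the filter. Of the 8 tested steroid enzyme and transport genes, Hsd11b1 and the efflux pump gene Abcb1b rose, Cyp21a1 and Abcb1a fell, and 4 did not pass. The shares over all tested genes were 31.7% that rose and 29.4% that fell. Abcb1b rose 3.05-fold to 33.8 ± 4.74 while its close paralog Abcb1a fell 2.09-fold to 1.20 ± 0.0808. How reads that match both genes were assigned is not known, so both folds may be affected. Cyp21a1, a steroid 21-hydroxylase, fell 2.24-fold to 2.99 ± 0.451. Serpina6, which encodes the corticosteroid-binding globulin of plasma, was listed at 0 in all 6 libraries.

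Fkbp5 (gene ID 361810) encodes FKBP51, an immunophilin that sits on the receptor complex with HSP90, lowers its affinity for hormone and is itself induced by the receptor, closing a feedback loop. Its values were 4.63, 4.41 and 4.27 in control replicates 1, 2 and 3 and 1.08, 0.75 and 1.03 in serum-starved replicates 1, 2 and 3. Control values were close to each other, and the lowest of them was far above the highest serum-starved value. The log2 fold change was -1.48 ± 0.101 (limma, Benjamini-Hochberg adjusted p = 7.09e-06), and 3.92% of tested genes, passed or not, had one as low or lower. Because Fkbp5 is low, the estimate moves with the offset added before the log, from -2.12 with 0.1 to -0.66 with 5, and it falls below a filter at 5.

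FKBP52, encoded by Fkbp4, is the immunophilin that takes the place of FKBP51 on the complex and favours receptor activity. Fkbp4 fell 1.36-fold, from 26.9 ± 1.29 to 19.7 ± 1.16. The within-library ratio of Fkbp5 to Fkbp4 was 0.163, 0.169 and 0.162 in control replicates 1, 2 and 3 and 0.0561, 0.0356 and 0.0545 in the serum-starved ones. The mean ratio was 3.38-fold lower in serum-starved cells, with no overlap between groups (exact two-sided permutation test, p = 0.1, again the smallest possible). Altogether 7 within-library ratios were computed, chosen after values were seen, and each had an exact permutation p = 0.1 before and after Benjamini-Hochberg adjustment over the 7.

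Among the 14 tested genes for FK506-binding proteins, 6 fell, 2 rose and 6 did not pass, and their median log2 fold change was -0.18. For comparison, 29.4% of all tested genes fell and 31.7% rose. Fkbp5 fell most of them, at -1.48 on the log2(value + 1) scale. The next was Fkbp11, at -0.46 on that scale, and Fkbp7 and Fkbp9, which lie in the endoplasmic reticulum, rose 2.11-fold and 1.80-fold. Of 17 chaperone and co-chaperone genes of the receptor complex, 12 fell, Fkbp5 and Fkbp4 among them, 1 rose and 4 did not pass; their median log2 fold change was -0.33 against 0.03 over all tested genes. Hsp90aa1 fell 2.08-fold to 190 ± 8.69, and Stip1, which hands clients from HSP70 to HSP90, fell 1.70-fold. The other cytosolic HSP90 gene, Hsp90ab1, was at 565.13, 568.45 and 574.87 in control and 577.34, 566.56 and 543.26 in serum-starved libraries and did not pass. Dnaja1, an HSP40 co-chaperone, was the gene that rose, 1.45-fold, on the deposited scale, and 3 rose after quantile normalization or scaling to an equal total.

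**Figure D2:**
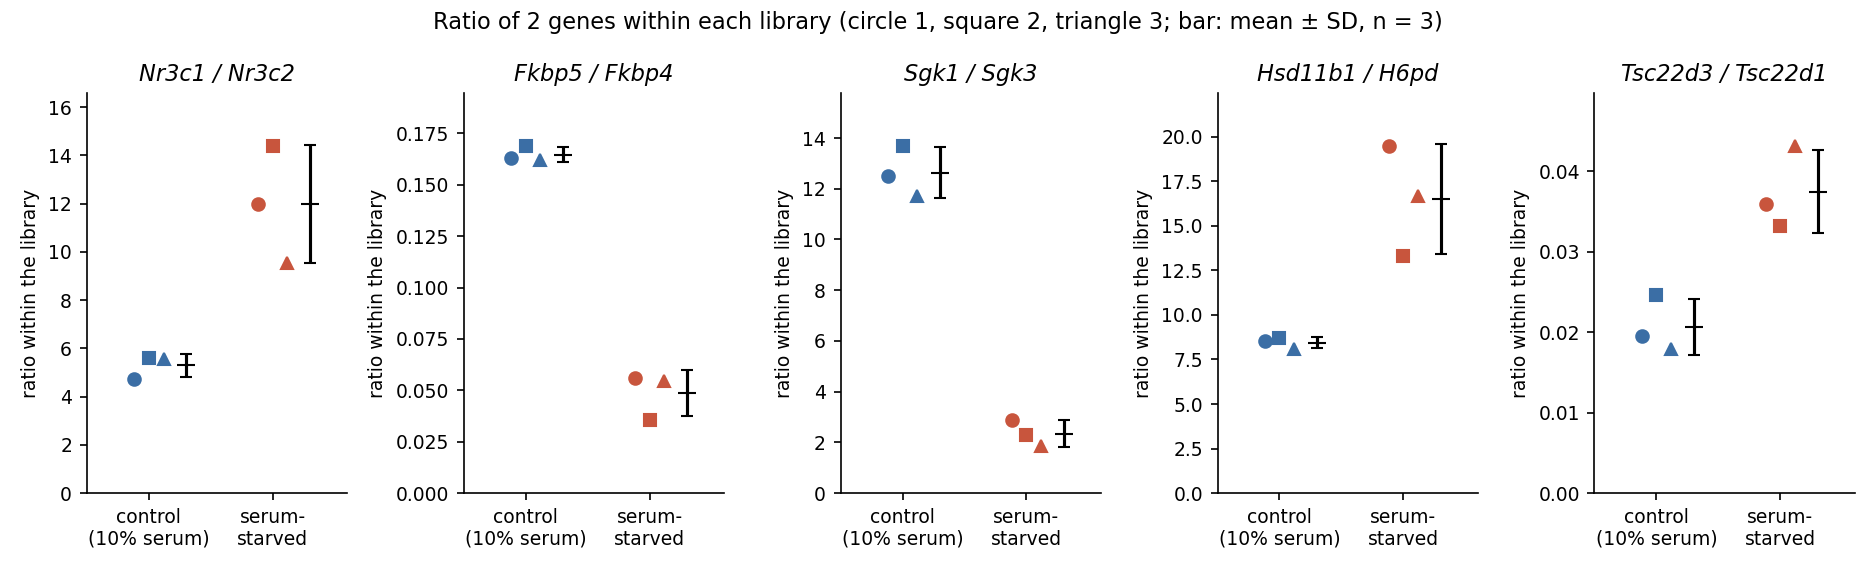
Ratio of 2 genes within each library (vertical axis, no unit, from 0) in control and serum-starved cells; points are libraries and bars are mean ± SD. Nr3c1 to Nr3c2, Hsd11b1 to H6pd and Tsc22d3 to Tsc22d1 are higher in every serum-starved library than in any control, and Fkbp5 to Fkbp4 and Sgk1 to Sgk3 are lower.

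The response genes, all known targets of the receptor, had different changes. Bases before the start sites are given here, and whether they bear on these changes was not tested. RefSeq promoter windows of the rat assembly GRCr8 were found for 5 of the 8 genes by gene ID (Nr3c1, Fkbp5, Tsc22d3, Klf9 and Sgk1), 10 windows in all, of which the 250 bases before each start were searched. Which start the cells used is unknown, and the coordinates are those of GRCr8 and not of the deposited tables. The motifs were AGAACA, the core of a glucocorticoid receptor binding site, GTAAACA of forkhead factors such as FOXO, and TGAGTCA of AP-1, each on both strands, and TATAAA on the gene strand. AGAACA was in 17.5% of all 33469 windows and in 0 of these 10. Its paired form, AGAACA and TGTTCT 3 bases apart, was in 0.01% of all windows and in 0 of the 10. TGAGTCA was in 4.0% of all windows and in 0 of the 10, GTAAACA in 3.2% and in 2, and TATAAA in 8.1% and in 3. These are matches of letters in short windows, and receptor sites commonly lie far from a start.

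Of these windows 3 are shown: the 2 that hold the forkhead letters, and 1 of the 3 windows of Sgk1, the gene with the largest change. The first is the third start of Tsc22d3 on the X chromosome, chrX:109010035-109010284, minus strand, with the forkhead letters in their reverse form beginning 162 bases and TATAAA beginning 44 bases before the start. The second is the start of Klf9, chr1:230126396-230126645, plus strand, with the forkhead letters beginning 133 bases before it. The third is the most downstream of the 3 Sgk1 starts, chr1:24804832-24805081, minus strand, with TATAAA beginning 33 bases before it. The most upstream Sgk1 start, not shown, also has TATAAA, beginning 55 bases before it, and the middle one has none of the motifs. Capitals mark the motifs, and each sequence reads 5′ to 3′ on the gene's strand.
Tsc22d3: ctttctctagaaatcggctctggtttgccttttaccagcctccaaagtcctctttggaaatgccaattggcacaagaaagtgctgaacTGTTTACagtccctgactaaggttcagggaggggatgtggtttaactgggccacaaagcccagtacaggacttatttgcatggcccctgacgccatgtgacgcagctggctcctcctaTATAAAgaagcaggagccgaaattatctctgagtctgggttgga
Klf9: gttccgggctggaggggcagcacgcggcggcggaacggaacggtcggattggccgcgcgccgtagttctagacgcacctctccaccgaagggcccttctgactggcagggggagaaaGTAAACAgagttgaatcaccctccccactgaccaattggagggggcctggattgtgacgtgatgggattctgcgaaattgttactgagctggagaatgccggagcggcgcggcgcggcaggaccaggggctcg
Sgk1: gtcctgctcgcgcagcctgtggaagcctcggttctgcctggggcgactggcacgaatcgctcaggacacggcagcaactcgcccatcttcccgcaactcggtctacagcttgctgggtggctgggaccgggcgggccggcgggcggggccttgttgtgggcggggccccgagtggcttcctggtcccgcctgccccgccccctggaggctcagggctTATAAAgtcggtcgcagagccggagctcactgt

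Sgk1 (gene ID 29517) encodes a kinase related to AKT that acts on ion channels, transporters and FOXO factors. Its values were 75.9, 71.07 and 55.02 in control replicates 1, 2 and 3 and 15.82, 12.03 and 11.25 in serum-starved replicates 1, 2 and 3. The lowest control value was well above the highest serum-starved one. The log2 fold change was -2.28 ± 0.148 (limma, Benjamini-Hochberg adjusted p = 5.46e-06). Of 11493 tested genes, passed or not, 200, or 1.74%, had one as low or lower. Its level dropped from the 92.4 to the 68.9 percentile of all genes.

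Sgk3, a kinase of the same family, was at 5.33 ± 0.705 in control and 5.59 ± 0.403 in serum-starved cells and did not pass, and Sgk2 was at most 0.14. The within-library ratio of Sgk1 to Sgk3 went from between 11.7 and 13.7 in control to between 1.86 and 2.90 in serum-starved libraries, with no overlap. Of 16 tested genes listed as kin, activators and substrates of SGK1, 7 fell, Sgk1 included, 3 rose and 6 did not pass. Their median log2 fold change was -0.08. With 61.1% of all tested genes called, 29.4% lower and 31.7% higher, the number called on this list is close to the background. Ndrg1 and Ndrg2, whose proteins are SGK1 substrates, fell 1.37-fold and 2.30-fold. Rictor and Mapkap1, subunits of the mTORC2 complex that phosphorylates SGK1, rose by 0.41 and 0.36 on the log2(value + 1) scale.

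Tsc22d3 (gene ID 83514) encodes GILZ, a leucine zipper protein that restrains NF-kB and AP-1 and is widely used as a readout of glucocorticoid. Its values were 12.49, 16.63 and 11.24 in control replicates 1, 2 and 3 and 13.61, 13.7 and 15.25 in the serum-starved ones. The groups overlapped, with control replicate 2 the highest of all 6 libraries. The log2 fold change was 0.09 ± 0.130 with a 95% interval from -0.21 to 0.39 (limma, Benjamini-Hochberg adjusted p = 0.582). A change was therefore not shown, and on this scale the interval does not reach the fall of Fkbp5 or Sgk1. The estimate was -0.049 with library weights and -0.024 without control replicate 3.

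The paralog Tsc22d1 fell 1.70-fold, from 649 ± 25.6 to 381 ± 30.2, and was the TSC22 family gene of highest level. Tsc22d2 and Tsc22d4 did not pass. The within-library ratio of Tsc22d3 to Tsc22d1 was between 0.0179 and 0.0246 in control and between 0.0332 and 0.0432 in serum-starved libraries. Of the 18 tested genes listed as FOXO responses, a list that holds Tsc22d3, 13 rose, 1 fell and 4 did not pass. This list shares genes, such as Fbxo32, with the wider list of glucocorticoid-induced genes given below, so the counts of the lists are not separate. Beside this, 31.7% of all tested genes rose and 29.4% fell. The median log2 fold change of the list was 0.64, or 0.73 with Tsc22d3 left out. Pik3ip1 rose 5.95-fold, the cyclin gene Ccng2 3.03-fold and Klhl24 2.86-fold, and the gene for the mitophagy receptor Bnip3 fell 5.17-fold. Tsc22d3, at 0.09 on the log2(value + 1) scale, lay below the median of that list. Whether FOXO factors or glucocorticoid set the level of Tsc22d3 was not tested.

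Klf9 (gene ID 117560) encodes a Krüppel-like transcription factor that glucocorticoid and thyroid hormone induce in many tissues. Its values were 10.66, 9.95 and 11.1 in control replicates 1, 2 and 3 and 8.99, 9.86 and 8.14 in the serum-starved ones. All controls were above all serum-starved libraries, but control replicate 2 and serum-starved replicate 2 were nearly equal. The log2 fold change was -0.21 ± 0.0869 with a 95% interval from -0.41 to -0.01, unadjusted p = 0.0387 and limma, Benjamini-Hochberg adjusted p = 0.0612. The call depended on the setting. The adjusted p was 0.0296 with median-ratio scaling, 0.0423 with library weights, 0.0396 after quantile normalization and 0.0356 when serum-starved replicate 2 was left out, and it was 0.731 after scaling to an equal total, over alternatives that ranged from 0.0296 to 0.731.

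Zbtb16 (gene ID 353227) encodes the zinc finger protein PLZF, a gene strongly induced by glucocorticoid in many stromal cells. It was listed at 0.01, 0 and 0.02 in control replicates 1, 2 and 3 and at 0 in all serum-starved libraries. The values are at the rounding of the tables, so no fold is given, and the gene was not tested on the main filter. Without a filter its log2 fold change was -0.014 ± 0.0202 (limma, Benjamini-Hochberg adjusted p = 0.607). Control cells in serum thus gave almost no Zbtb16 signal, and a loss on serum withdrawal could not be seen.

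**Figure D3:**
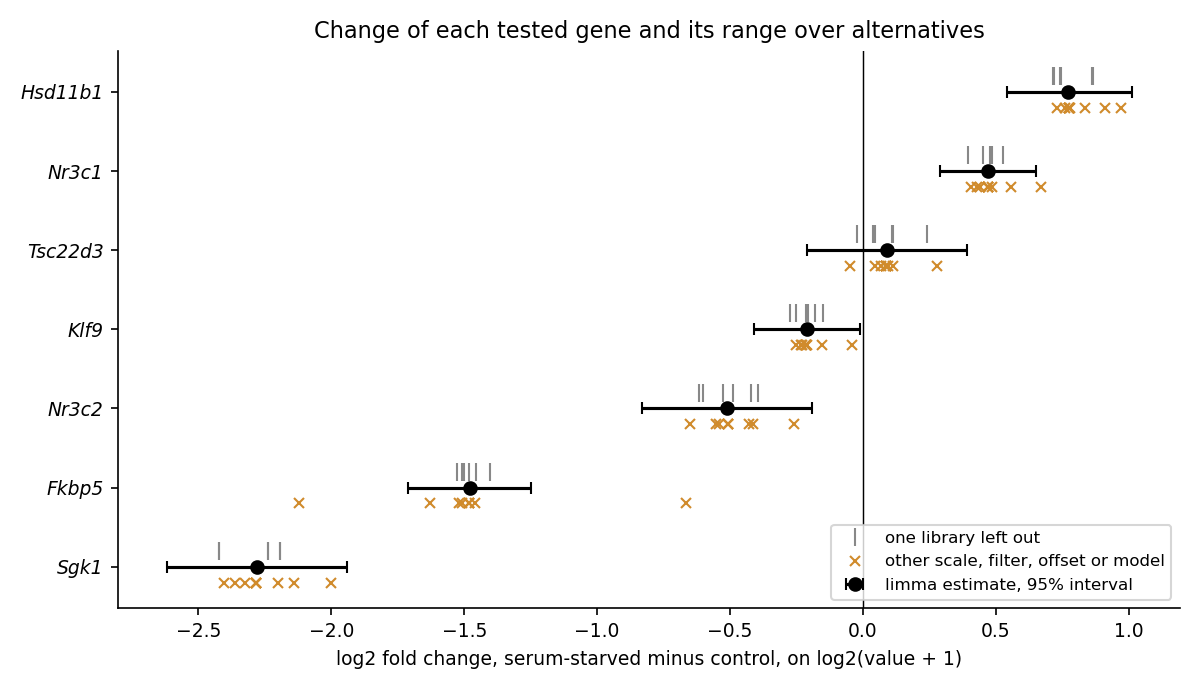
Log2 fold change, serum-starved minus control, of the 7 tested genes (horizontal axis, log2(value + 1) scale), as limma estimates with 95% intervals (black), with 1 library left out (grey ticks) and under other scales, filters, offsets or models (orange crosses). Sgk1, Fkbp5, Nr3c2, Nr3c1 and Hsd11b1 kept their side of 0 throughout, Klf9 approached 0 and Tsc22d3 crossed it.

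The order of levels among the 8 genes, on values per transcript length, was Hsd11b1, Sgk1, Nr3c1, Tsc22d3, Klf9, Fkbp5, Nr3c2 and Zbtb16 in control means. Fkbp5 and Nr3c2 did not differ beyond their spread there, at 4.44 ± 0.181 and 4.06 ± 0.745. Tsc22d3 and Klf9, at 13.5 ± 2.82 and 10.6 ± 0.580, were also close. In serum-starved cells the order was Hsd11b1, Nr3c1, Tsc22d3, Sgk1, Klf9, Nr3c2, Fkbp5 and Zbtb16, with Tsc22d3 at 14.2 ± 0.922 and Sgk1 at 13.0 ± 2.44 within their spread. Sgk1 thus dropped from the second to the fourth place, and Nr3c1 stood above it.

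A wider list of 58 genes known to be induced by glucocorticoid in one tissue or another was drawn up without the 8 genes. Of these 55 were matched and 49 tested: 20 rose, 15 fell and 14 did not pass, and the median log2 fold change was 0.13 against 0.03 over all genes. In the whole set of tested genes 31.7% rose and 29.4% fell. On the log2(value + 1) scale the largest rises were those of Angptl4 (29.3-fold by the means), Pdk4 (8.54-fold) and Gpx3 (7.30-fold), which encode a lipase inhibitor, a brake on pyruvate oxidation and a secreted glutathione peroxidase. Mertk, which is low and encodes a receptor kinase, rose 12.7-fold by the means, from 0.193 ± 0.0586 to 2.45 ± 0.709, but by 1.51 on the log2(value + 1) scale. Angptl4 was at 1.39, 1.16 and 5.28 in control replicates 1, 2 and 3, and its log2 fold change was 4.6, or 5.09 without control replicate 3. Lcn2, which encodes lipocalin 2, rose 3.77-fold, but its 3 control values were far apart, at 27.3, 37.91 and 204.93, and its log2 fold change was 3.29 without control replicate 3 in place of 2.41. Falls included those of the water channel gene Aqp1 (18.9-fold), of Errfi1 (9.28-fold), an inhibitor of the EGF receptor, and of Dusp1 (3.35-fold), a phosphatase of MAP kinases. Per1, the clock gene that glucocorticoid induces directly, did not pass, at 5.00 ± 0.652 in control and 4.81 ± 0.655 in serum-starved cells. The list therefore went both ways. Among the 8 genes, those that rose were the receptor gene Nr3c1 and the enzyme gene Hsd11b1. Fkbp5 and Sgk1 fell, and none of the response genes among the 8 rose. Many of its genes also answer growth factors, FOXO factors or fatty acids, and the part of each was not tested.

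Of 30 genes known to be repressed by glucocorticoid, 16 were tested: 13 fell and 3 did not pass by limma, 14 were below the filter, and the median log2 fold change was -1.41. Over all tested genes 29.4% fell and the median was 0.03. Whether glucocorticoid or other parts of serum had a role in these falls was not tested. None rose (0 at the adjusted threshold, 1 at an unadjusted p under 0.05). Fosl1 fell 15.8-fold and Ptgs2 4.71-fold. The collagenase gene Mmp13 was that 1, at 0.71 on the log2(value + 1) scale, with an unadjusted p of 0.0392 and an adjusted p = 0.0618, and Mmp3, at 0.55, did not pass either, with an unadjusted p of 0.107. After quantile normalization 2 genes rose. Among 21 tested coregulators of the receptor, 10 rose, 3 fell and 8 did not pass (median 0.18). As 61.1% of all tested genes were called, 31.7% higher and 29.4% lower, the number of coregulators called is close to the background. Nr2f2, an orphan nuclear receptor that binds the glucocorticoid receptor, rose 2.04-fold, and the coactivator gene Ncoa1 1.98-fold. The chromatin remodeller gene Smarca4 was lower, at -0.30 on the log2(value + 1) scale, and no coregulator fell after scaling to an equal total.

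**Figure D4:**
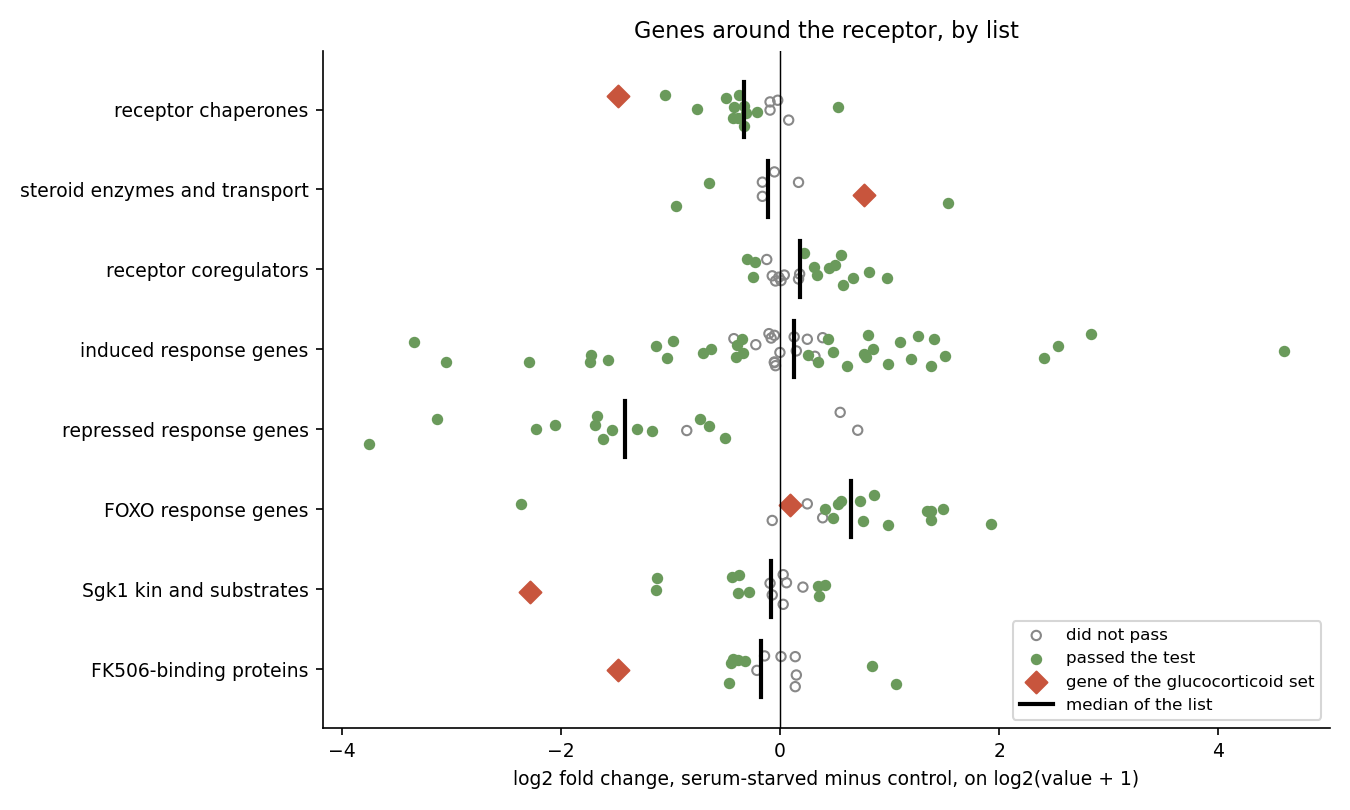
Log2 fold change (horizontal axis, serum-starved minus control, log2(value + 1) scale) of every tested gene on 8 lists (vertical axis); filled circles passed the test, open circles did not, black lines are list medians and diamonds are genes of the glucocorticoid set. Fkbp5 and Sgk1 lie at the low end of their lists, and Tsc22d3 lies below the median of the FOXO response list.

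The genes nearest in pattern were found by the root mean square distance between gene-centred log2(value + 1) profiles over the 6 libraries, among 8584 tested genes with a mean of at least 5. Nearest to Nr3c1 were Mier1 (distance 0.026), Zfp422 and Nek7, and nearest to Nr3c2 were Sgcd (0.053), Ramac and LOC100911730. Hsd11b1 was nearest to Lima1 (0.071), Hsdl2 and Tmem127. Fkbp5 lay nearest to LOC103690013 (0.038), Nhp2 and Metrn, and Sgk1 to Fam111a (0.082), Hmga2 and MGC105649. None of these 15 nearest genes is on the lists around the receptor. With 2 groups of 3 libraries, such a likeness is mostly that of the size of the change.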

How the data were processed

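RNA from 6 samples was depleted of ribosomal RNA and reverse transcribed from random primers, per the labels' protocols. The authors deposited 1 table per library with 1 value per gene, taken here to be FPKM; HISAT2 and StringTie were used to make them, per the submitters' processing notes. The file headers give no unit, and the values are not whole and sum to different totals. The submitters' processing notes further list bcl2fastq 2.0, limma and DESeq2 and name mm10, a mouse build, although the gene IDs are rat; 15927 of 17093 matched a GRCr8 rat table. Whether counting used strand is not stated. At most 0.26% of values of at least 5 were equal between any 2 libraries.

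Groups came from sample titles; the treatment labels and series design match them, and the treatment text, which is the same for all samples, does not separate them. Values were analysed as log2(value + 1); limma 3.58.1 (R 4.3.3) with an intensity trend compared 3 with 3 libraries over 11493 genes, with Benjamini-Hochberg adjustment over all of them and 4 residual degrees of freedom. No label says that libraries came from separate cultures or animals, so the p-values reflect spread that may be technical. An exact permutation test of 3 against 3 cannot go below 0.1. In simulated data of 11493 genes, 66 were changed by 0.5 on the log2 scale, 67 by 1 and 67 by 2, all drawn from genes of higher level. Of these, 66.7%, 97.0% and 100% were recovered, and 8 of 184 calls were false. Because 7024 genes were called in the real data, the adjustment was stricter in the simulation, and these rates do not give the recovery of the real test. Python 3.11.15, pandas 2.3.3, numpy 2.4.6, scipy 1.17.1 and matplotlib 3.10.9 joined, tested and drew the rest.

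The 8 genes and the lists were chosen with earlier results of these data known. Named genes are the 8 members, called genes with the up to 4 largest changes per list and direction, close paralogs or partner enzymes (H6pd among them), and the 3 nearest profiles per called member. Per1, Hsp90ab1, Mmp3, Mmp13, Mertk, Mt2A, Cebpd, the cell type markers with values and genes below the filter were named after their values were seen. Alternatives changed the offset, filter, scale, library weights, trend, replicate block and libraries. Some listed genes are counted but not reported by name here.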

Additional observations from a re-analysis of the deposited data

How the results depend on the processing

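Across 16 alternatives, Nr3c1, Hsd11b1 and Sgk1 kept their direction and call in all, and Nr3c2 and Fkbp5 in the 15 in which they were tested. With a filter at 5, Nr3c2 and Fkbp5 were not tested, so 3 members were called, 1 of them lower; leaving out 1 library, the called members numbered 5 or 6. Tsc22d3 changed sign with library weights (-0.049) and among fits without 1 library, where it ranged from -0.024 (without control replicate 3) to 0.24; it passed in none. Klf9 passed in 4 alternatives, as given above. Between 5533 (filter at 5) and 7810 (library weights) genes were called in all. The replicate numbers are not shown to pair the libraries: deviations of same-numbered libraries correlated at 0.105, -0.199 and 0.110 across genes. With the replicate block 6801 genes were called, and 5 members as before. Counts of steroid receptor, enzyme, kin and FK506-binding genes that rose or fell moved over 1.5 times in single settings: 2 receptor and 4 enzyme genes rose with no filter, 1 of each fell with the filter at 5, 5 kin and 4 FK506-binding genes rose after scaling to an equal total, 4 FK506-binding genes rose after quantile normalization and 1 coregulator fell there. Of genes listed as repressed, 2 rose under 5 alternatives. Depth is unknown, so low genes such as Zbtb16, Hsd11b2 and Fkbp5 carry no counting interval.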

Other observations

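Some steroid enzyme and transport genes below the filter also differed between groups, and were looked at after their values were seen. Others of that list did not: Akr1c14 overlapped, at 0.0667 ± 0.0115 in control and 0.0800 ± 0.0755 in serum-starved cells, and Serpina6 was at 0 throughout. Cyp11a1, which encodes the enzyme that starts steroid synthesis from cholesterol, was at 0.78, 0.73 and 0.8 in control replicates 1, 2 and 3 against 0.08, 0.08 and 0.04 after starvation. Star, whose protein carries cholesterol into mitochondria, was at 0.12, 0.18 and 0.12 in control and at 0.47, 0.38 and 0.43 in serum-starved libraries. In the fit with no filter, over 16684 genes, the log2 fold changes were -0.73 ± 0.0371 for Cyp11a1, 0.32 ± 0.0400 for Star and 0.69 ± 0.140 for Hsd11b2 (limma, Benjamini-Hochberg adjusted p = 2.82e-05, 0.000932 and 0.00741). That fit called 7581 of the 16684 genes. All these levels are low, and the depth behind them is unknown.

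Some genes of the glucocorticoid-induced list varied within groups in a shared way that Nr3c1, Fkbp5 and Sgk1 did not show. Cebpd was at 29.02, 32.74 and 73.62 in control replicates 1, 2 and 3 against 34.02, 66.93 and 40.64 after starvation. Mt2A, a metallothionein gene, was at 279.4, 218.78 and 485.6 in control and at 548.36, 897.22 and 591.63 in serum-starved libraries. Lcn2 was at 27.3, 37.91 and 204.93 in control and at 255.02, 499.37 and 265.0 in serum-starved libraries. In each of the 3 genes control replicate 3 was the highest control and serum-starved replicate 2 the highest serum-starved library. Without control replicate 3 the log2 fold change of Lcn2 was 3.29 ± 0.288 in place of 2.41 ± 0.657, that of Mt2A 1.42 ± 0.211 in place of 1.10 ± 0.287, and that of Cebpd 0.54 ± 0.248 in place of 0.13 ± 0.353. With that library left out Cebpd did not pass (limma, Benjamini-Hochberg adjusted p = 0.0961). Among the members, Klf9 had the same highest libraries, over a narrower range. It was at 10.66, 9.95 and 11.1 in control and at 8.99, 9.86 and 8.14 in serum-starved replicates 1, 2 and 3. Hsd11b1 had its highest control value in replicate 3 as well, but its lowest serum-starved value in replicate 2. Nr3c1 had its highest serum-starved value in replicate 2 (30.57), but its lowest control value in replicate 3 (19.06).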
